A study of Mus musculus with 4 samples.

Results

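SiglecF lo neutrophils from hearts of *Cd300a-/-* mice were compared with those from WT mice on day 3 after myocardial infarction and reperfusion (MI/R), to describe what loss of the inhibitory receptor CD300a changed in this subset. The comparison used the 2 samples of SiglecF-negative cells by genotype label, out of 4 samples in all, with the 2 SiglecF hi samples beside them for reference. The study asked how CD300a shapes ischemic damage in heart and kidney, and its action in neutrophils of the injured heart was 1 part of this. Mice of both genotypes were males on the C57BL/6 background, 8 to 12 weeks old, whose left anterior descending artery was occluded and reopened. The *Cd300a-/-* mice lack the gene in every cell, so the other cells of the heart lacked it as well. Each sample was a pool of 8 hearts, sorted as CD45.2+CD11b+Ly6G+ cells with little or no SiglecF, which the labels call SiglecF-negative and which are called SiglecF lo here. There was 1 library for each genotype, so the differences have no replicates behind them, no test between genotypes was made, and variation among the pooled mice is unknown.

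CD300a is a receptor of myeloid cells that binds phosphatidylserine on dying cells and, through tyrosine motifs in its tail, recruits phosphatases that dampen signals from activating receptors. Neutrophils make their granule proteins in waves as they mature in the bone marrow, with azurophil proteins first, specific granule proteins next and gelatinase granule proteins last, and the transcripts decline as the cells leave the marrow and age in tissue. In the infarcted heart, neutrophils that stay in the tissue come to display SiglecF, so the SiglecF lo cells include the more recent arrivals.

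In *Cd300a-/-* SiglecF lo neutrophils, most specific granule genes were higher, as were *Nos2*, *Ggt1* and *Ifitm6*, while many interferon-stimulated genes and endothelial marker genes were lower. Chemokine genes, ribosomal protein genes and nuclear genes of oxidative phosphorylation were often lower in a way that moved with the length of the gene model. The same held for genes of MHC class I presentation and the immunoproteasome. Levels are in TPM, counts divided by gene length and scaled to the same sum in every library, and a difference is the log2 ratio of TPM + 1 in *Cd300a-/-* over WT, which understates the change of genes at low levels. Genes with a mean TPM of the 2 SiglecF lo libraries over 10 were taken, which was 5643 of 25655 genes. *Card10*, at a mean of 10.0003 TPM, lay just inside this limit and *Ambra1*, at 9.9976 TPM, just outside. Past a ratio of 0.5, called higher or lower throughout, 895 genes (15.9%) were higher and 1075 (19.1%) lower in *Cd300a-/-*. Past a ratio of 1, 169 genes (2.99%) were higher and 301 (5.33%) lower. The counts of higher and lower members in each list below are to be set against these shares. The median of all ratios was -0.02. Depth, as the sum of all gene counts, was 9631901 for WT and 10988619 for *Cd300a-/-*.

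Square brackets after a ratio hold its 95% counting interval, which covers counting error only. Reads carried no molecular identifiers, so copies of 1 molecule count more than 1 time and the intervals are too narrow by an unknown amount. In SiglecF lo neutrophils, 630 genes had 0 counts in 1 library and at least 20 in the other, against 103 genes between the deeper SiglecF hi libraries. Over the 5643 genes the SD of the ratios was 0.62 in SiglecF lo and 0.31 in the SiglecF hi subset, a wider spread whose source was not tested. The ratio also moved with the length of the gene model. Among the 566 shortest genes, of 234 to 1368 bases, the median ratio was -0.51 and 50.5% of genes were lower. Among the 565 longest, of 7228 to 22772 bases, the median was 0.32 and 31.9% were higher. In SiglecF hi neutrophils the same groups had medians of -0.08 and 0.09. The part of RNA quality or library making in this trend was not tested. A length-centred ratio is the ratio minus the median of the genes in the same of 20 length bins, an adjustment chosen after the data were seen. It is given for many of the lists that it changed, and genes past 0.5 that were not past it when centred are named as such.

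**Figure D1:**
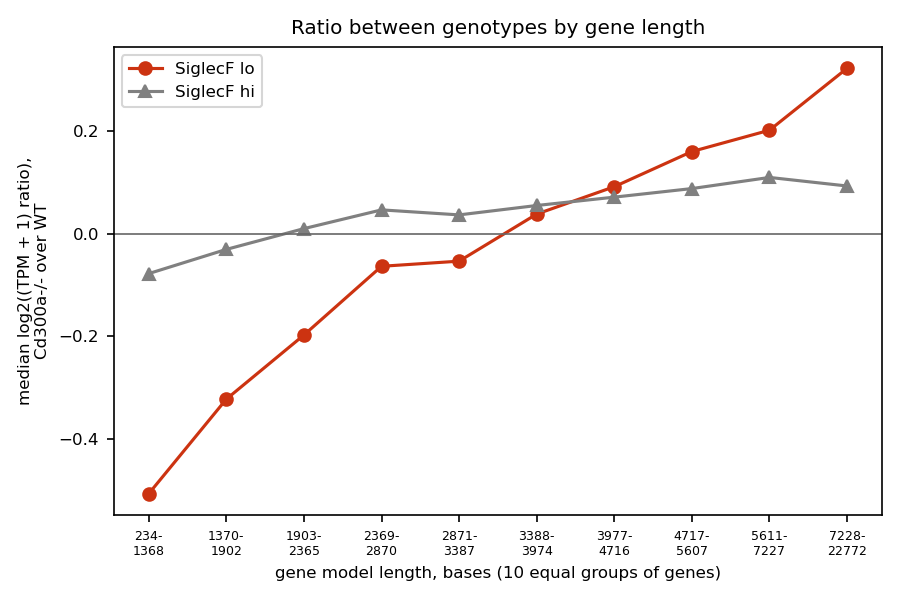
Median log2 ratio of TPM + 1, Cd300a-/- over WT, in 10 equal groups of the 5643 genes by gene model length in bases, for SiglecF lo (circles) and SiglecF hi neutrophils (triangles). The SiglecF lo medians climb from -0.51 in the shortest to 0.32 in the longest genes, and the SiglecF hi medians lie between -0.08 and 0.11.

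*Cd300a* (ENSMUSG00000034652, GRCm39 chromosome 11 from 114780867 to 114795480) gave 3024 counts in WT, or 127 TPM, and 28 counts, or 1.06 TPM, without the gene, a ratio of -5.95 [-6.23 to -5.67]. Of the genes behind the sort, *Ptprc*, which encodes CD45, was at 608 TPM in WT against 683 TPM in *Cd300a-/-*. *Itgam*, the CD11b chain, was higher, at 367 TPM in WT against 550.4 TPM in *Cd300a-/-* (ratio 0.58 [0.55 to 0.62]). *Ly6g* was higher as well, at 330.4 TPM in WT against 889 TPM in *Cd300a-/-* (ratio 1.43 [1.34 to 1.51]). *Siglecf* was low in both, at 11.3 and 15.3 TPM, against 354 and 405 TPM in SiglecF hi neutrophils. Both libraries thus carried the transcripts of the gate, and the *Cd300a-/-* library carried more *Ly6g*. Centred on length, *Itgam* was within 0.5.

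The Cd300 family sits in 1 stretch of chromosome 11 beside *Cd300a*, except *Cd300lg*. Of its 12 members 8 were tested, with 3 higher and 2 lower, the lower ones being *Cd300a* itself and *Cd300ld*. *Cd300ld* (chromosome 11 from 114873100 to 114880748), an activating member, was at 503 TPM in WT against 166 TPM in *Cd300a-/-* (ratio -1.60 [-1.66 to -1.53]), and at 369 and 193 TPM in SiglecF hi neutrophils. Its close copies moved apart. *Cd300ld5* had 0 counts in WT and 225 in *Cd300a-/-*, at least 68.0-fold higher when 0 is set to 3 counts, and *Cd300ld4* had 69 and 0, at least 25.4-fold lower. *Cd300ld2* had 1 count in WT and 91 in *Cd300a-/-* (ratio 3.93 [3.36 to 4.50]), and *Cd300ld3* was at 138 and 268 TPM (ratio 0.95). All 4 copies moved the same way in SiglecF hi neutrophils, where *Cd300ld4* was at 15.1 TPM in WT and 0 in *Cd300a-/-* and *Cd300ld5* at 6.96 and 36.6 TPM. These genes are so alike that reads can be shared among them, so each value is uncertain. *Cd300lf*, an inhibitory member, was at 394 TPM in WT against 577 TPM in *Cd300a-/-* (ratio 0.55 [0.49 to 0.61]). *Cd300lb*, which signals through DAP12, was at 156 and 169.9 TPM, *Cd300c2* at 317 and 249 TPM, and *Cd300e* at 15.2 and 19.8 TPM, with ratios of 0.12, -0.35 and 0.36. *Cd300lg*, an endothelial member, was below the limit, at 15.5 and 1.22 TPM, and *Cd300c* had 0 counts in both.

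Of the cell-type marker lists, that of neutrophils was by far the most abundant. Its 10 genes summed to 159984 TPM in WT and 208243 in *Cd300a-/-*, with *S100a9* most abundant at 76228 and 89228 TPM, and 4 of the 10 were higher and 1 lower. Transcripts of other cells were present too. The 16 macrophage and monocyte markers summed to 6553 and 5735 TPM, with *Apoe* most abundant at 2637 and 2109 TPM and none at 0 counts, and 1 of 14 tested was higher and 3 lower. Of these, *Mrc1*, a mannose receptor, was at 48.8 TPM in WT against 77.9 TPM in *Cd300a-/-* and *Fcgr1*, the high-affinity Fcγ receptor, at 167 and 71.1 TPM. The 11 fibroblast and mural markers summed to 1297 and 1263 TPM, with *Dcn* most abundant at 302 and 249 TPM. Among 10 tested, the matrix protein gene *Postn* was higher (ratio 0.81 [0.72 to 0.90]) and the pericyte receptor gene *Pdgfrb* lower (ratio -1.05 [-1.25 to -0.85]). The median ratios were 0.36 for neutrophil, -0.13 for macrophage and -0.10 for fibroblast markers, and length-centred 0.62, 0.08 and -0.17. In these pooled libraries, fewer cells of a type and less RNA per cell cannot be told apart. The gate selects against endothelial cells, fibroblasts and cardiomyocytes, and how their transcripts came into the libraries was not tested. Within 0.5 when centred on length was *Mrc1*.

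Endothelial markers had the largest median difference of the cell-type lists. The 10 genes summed to 619 TPM in WT and 193 TPM in *Cd300a-/-*. Of 7 tested, 6 were lower, all 6 of them past 1, against 19.1% and 5.33% of all genes. The median was -1.64 (length-centred -1.41). *Fabp4*, a fatty acid carrier and the most abundant of them, was at 412 TPM in WT against 117 TPM in *Cd300a-/-* (ratio -1.81 [-1.95 to -1.68]). *Pecam1*, the adhesion molecule CD31, was at 57.5 and 15.6 TPM (ratio -1.82 [-1.98 to -1.66]). In SiglecF hi neutrophils the median of the same 7 genes was 0.43. No endothelial marker was at 0 in either library. The part of transcripts from these other cells in the differences between genotypes was not tested.

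Most other cell types left few transcripts, erythroid cells and platelets apart. Of 8 eosinophil markers, *Prg2*, *Prg3*, *Epx*, *Ear1* and *Ear6* were at 0 counts in both SiglecF lo libraries. Eosinophils carry SiglecF and would fall outside the gate. Only *Ear2* was tested, at 171 TPM in WT against 85.9 TPM in *Cd300a-/-* (ratio -0.98, length-centred -0.43), in a summed 173 and 87.9 TPM. Mast cell and basophil markers were at 0 except *Kit*, below the limit at 1.15 and 13.2 TPM. Markers of dendritic cells summed to 15.3 and 5.03 TPM with *Cd209a* most abundant, those of T and NK cells to 11.8 and 12.3 TPM with *Cd3g* most abundant, and those of B cells to 5.20 and 6.73 TPM, and none of these genes was tested. Cardiomyocyte markers summed to 70.0 and 37.6 TPM, with *Myl2*, at 13.2 and 12.5 TPM, most abundant by the mean of the 2 libraries. *Pln*, the inhibitor of the calcium pump, was at 13.5 TPM in WT against 6.78 TPM in *Cd300a-/-*. Erythroid markers summed to 1417 and 780.5 TPM, with *Hba-a2* most abundant at 799 and 408 TPM, and 2 of 4 tested were lower and 1 higher. Of 6 platelet markers only *Pf4* was tested, at 345 and 235 TPM. The Y-linked *Eif2s3y* was at 101 and 113 TPM in these pools of males, and of the 2 sex-linked genes tested 0 were past 0.5. The medians were -0.48 for the 2 cardiomyocyte and -0.54 for the erythroid markers tested, the latter at 0.01 when centred on length. With mean TPM over 1 the erythroid median was -0.11 over 5 genes. The globin genes *Hbb-bs* and *Hbb-bt* had ratios of -1.17 and 0.78 (length-centred -0.62 and 1.32). In SiglecF hi neutrophils their ratios were 0.32 and 0.79. Whether reads were shared between these globin genes was not tested, so the split between them is uncertain. Not past 0.5 once centred were *Hba-a2* and *Pf4*.

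Most specific granule genes were higher in *Cd300a-/-* SiglecF lo neutrophils, and all are given, a choice made after their values were seen. Of 10 members, all tested, 7 were higher and 0 lower, and 5 were past 1, against 15.9% and 2.99% of all genes. Their median ratio was 1.00 (length-centred 1.12) and their summed level 8882 TPM in WT and 17336 TPM in *Cd300a-/-*. *Cd177*, a surface protein stored in these granules, was at 143 TPM in WT against 741 TPM in *Cd300a-/-* (ratio 2.36 [2.29 to 2.43]). *Itgb2l*, an integrin chain, was at 13.9 and 68.8 TPM (ratio 2.23 [2.03 to 2.43]). *Lcn2*, the siderophore-binding lipocalin and the most abundant member, was at 2385 and 6124 TPM (ratio 1.36 [1.33 to 1.39]). Lactoferrin, encoded by *Ltf*, which withholds iron, was at 279 and 579.7 TPM. *Ngp* was at 1177 and 3096 TPM, *Olfm4* at 40.4 and 78.4 TPM, and *Pglyrp1*, which binds bacterial peptidoglycan, at 1893 and 2849.6 TPM. The 3 members within 0.5 were *Hp*, the haptoglobin gene, at 2028 and 2837 TPM, *Camp*, the cathelicidin gene, at 298 and 339 TPM, and *Chil3* at 625 and 623 TPM. In SiglecF hi neutrophils, where the summed level was 1935 and 2815 TPM, the median ratio of the list was 1.29, so the list was higher in *Cd300a-/-* in both subsets.

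Azurophil genes, of the earlier wave, were too low to be tested. The 7 genes summed to 5.39 TPM in WT and 17.9 in *Cd300a-/-*, with *Prtn3*, the proteinase 3 gene, at 15 and 65 counts. Genes of the later wave were mostly within 0.5. Among 8 genes of gelatinase granules and secretory vesicles, with a median of 0.21, 1 was higher, *Itgam*, and 1 was lower, *Alpl*, an alkaline phosphatase of secretory vesicles, at 15.0 TPM in WT against 5.67 TPM in *Cd300a-/-*. *Lyz2*, encoding lysozyme, was the most abundant at 7165 and 6061 TPM. Of 8 genes of newly recruited neutrophils, 4 were higher and 0 lower, against 15.9% and 19.1% of all genes. Their median was 0.35 (length-centred 0.61). It was 0.14 with TPM over 10 in both libraries and 0.22 without the 10 most abundant genes. *Retnlg*, a resistin-like protein, was at 12110.1 TPM in WT against 24002 TPM in *Cd300a-/-* (ratio 0.99 [0.97 to 1.00]). *Cebpe*, a transcription factor of granule gene expression, was at 9.57 and 14.6 TPM (ratio 0.57 [0.15 to 0.98]), with *Ly6g* as above. Of 6 genes of aged neutrophils, 0 were past 0.5 in either direction, with a median of 0.17. *Cxcr4*, the receptor by which aged neutrophils home to marrow, was at 1521 and 1206 TPM. After length centring *Itgam* was no longer past 0.5.

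**Figure D2:**
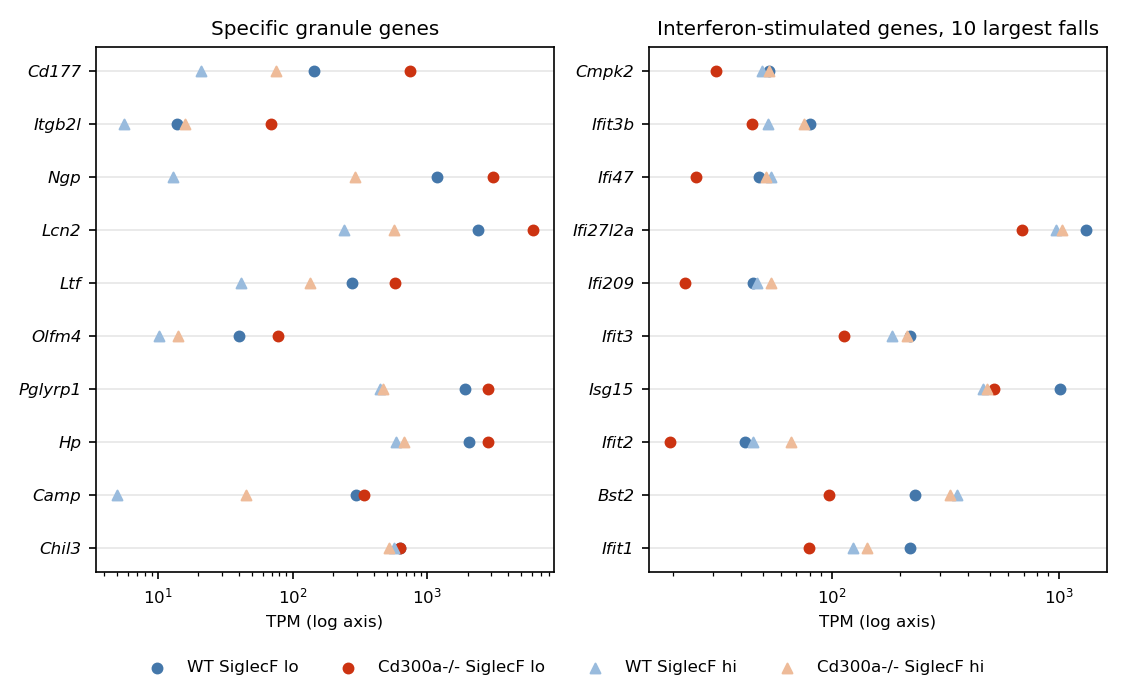
TPM on a log axis in the 4 libraries for the 10 specific granule genes (left) and the 10 interferon-stimulated genes with the largest falls (right), ordered by their ratio in SiglecF lo neutrophils. Circles are SiglecF lo and triangles SiglecF hi libraries, and each point is 1 library of 8 pooled hearts. *Lcn2* goes from 2385 to 6124 TPM and *Ifit1* from 221 to 79.8 TPM between WT and Cd300a-/- SiglecF lo neutrophils.

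The largest rises were those of *Cd300ld5*, of 1810049J17Rik, a gene known by its clone name with 0 and 67 counts, and of *Gvin2*. *Gvin2* is an interferon-inducible GTPase with 0 counts in WT and 1159 in *Cd300a-/-*, at least 350.2-fold higher. Its close copy *Gvin1* went the other way, at 32.0 and 14.9 TPM, so the split between them is uncertain. *Prok2*, encoding the secreted peptide prokineticin-2, was at 19.2 TPM in WT against 222 TPM in *Cd300a-/-* (ratio 3.46 [3.26 to 3.67]). *Tst*, a mitochondrial sulfurtransferase, had 10 and 140 counts (ratio 3.06 [2.46 to 3.67]). *Stfa3*, of a family of very similar protease inhibitors and thus uncertain, was at 27.4 and 173 TPM. *Ggt1*, which breaks down extracellular glutathione, was at 13.0 and 82.8 TPM (ratio 2.58 [2.39 to 2.77]). *Nos2*, the inducible nitric oxide synthase, was at 5.85 and 36.2 TPM (ratio 2.44 [2.21 to 2.67]). *Lars2*, the mitochondrial leucyl-tRNA synthetase, was at 66.4 and 350.0 TPM, and *Ifitm6*, of a family of interferon-induced membrane proteins, at 553 and 2771 TPM (ratio 2.32 [2.26 to 2.38]). In SiglecF hi neutrophils, *Prok2*, *Nos2*, *Ggt1* and *Ifitm6* also rose, by ratios of 1.99, 0.90, 0.65 and 1.46, while *Lars2* had -0.23.

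After *Cd300a*, the largest falls were in genes at low counts. *Fmc1*, an assembly factor of ATP synthase, had 68 counts in WT and 0 in *Cd300a-/-*, at least 25.0-fold lower, and *Cox4i2*, a cytochrome c oxidase isoform, had 99 and 0, at least 36.4-fold lower. *Fam110d* had 236 and 9 counts (ratio -4.07 [-4.63 to -3.51]), and *Nudt2*, a hydrolase of dinucleotides, 104 and 10 (ratio -3.01 [-3.68 to -2.35]). The histone gene *H4c17*, of a family of nearly identical genes, had 41 and 2 counts (ratio -3.47 [-4.50 to -2.45]) and is uncertain. *Pira1*, a paired immunoglobulin-like receptor, was at 23.1 and 2.40 TPM (ratio -2.83 [-3.15 to -2.51]), and at 32.1 and 0.0368 TPM in SiglecF hi neutrophils, though its copies share sequence as well. *Acta1*, a skeletal muscle actin, was at 30.9 and 3.56 TPM, *Ctla2a* at 26.2 and 3.37 TPM and *Csta3*, a further stefin, at 25.8 and 3.60 TPM.

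Among families of damage-associated and calcium-binding proteins, *S100a8* and *S100a9* together held 13.8% of TPM in WT and 17.3% in *Cd300a-/-*. Of 9 S100 genes tested, 3 were lower and 0 higher, among them *S100a10* at 290.2 and 148 TPM and *S100a4* at 537 and 294 TPM. The gene models of this list are short, and its median turned from -0.14 to 0.41 when centred on length. Of 7 stefin A genes, 3 were higher and 2 lower. *Cstdc5* was at 69.6 and 247 TPM and *Stfa2l1*, the most abundant, at 3562 and 2279 TPM, and all members share sequence and are uncertain. Of 8 annexins, which bind phospholipids in the presence of calcium, 3 were higher and 0 lower, against 15.9% and 19.1% of all genes. *Anxa11* was at 222 TPM in WT against 436 TPM in *Cd300a-/-* (ratio 0.97 [0.91 to 1.03]) and *Anxa7* at 27.3 and 49.9 TPM. Of 4 galectins, 1 was lower, *Lgals1*, at 720.3 and 359 TPM. The medians were -0.39 for stefins, 0.25 for annexins and -0.05 for galectins, and length-centred 0.16, 0.34 and 0.13, with 0 of the 7 stefins of the list past -0.5. With mean TPM over 1, 9 annexins had a median of 0.15 and the 8 genes of the stefin list -0.02. *Csta3*, whose fall is given above, was not on that list and stayed past -0.5 when centred on length. When length was taken into account, *S100a10*, *S100a4* and *Stfa2l1* were within 0.5.

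Receptors that share the motifs or partners of CD300a, and the enzymes that act on these motifs, moved to differing extents. Of 22 phosphatases, adaptors and kinases near such receptors, 2 were higher and 3 lower, with a median of 0.23. *Syk*, the kinase that activating receptors recruit, was at 164 TPM in WT against 251 TPM in *Cd300a-/-* (ratio 0.61 [0.56 to 0.66]), and *Pik3r5*, a regulatory subunit of a PI3-kinase, at 37.9 and 56.8 TPM. *Dok1*, an adaptor that restrains kinase signals, was at 16.9 and 5.00 TPM (ratio -1.58 [-1.96 to -1.21]). *Hcst*, encoding the adaptor DAP10, was at 266 and 155 TPM, and *Tyrobp*, encoding DAP12 and the most abundant, at 6599.8 and 5451 TPM. Of 7 paired immunoglobulin-like receptors, 2 were higher, *Lilr4b* at 576 and 909.7 TPM and *Pira2* at 96.0 and 142 TPM, and 1 was lower, *Pira1*. Of 4 Siglec genes, 2 were higher, the inhibitory *Cd33* at 145 and 234 TPM and *Siglec1* at 9.21 and 14.5 TPM. The median was 0.41 for the paired receptors and 0.51 for the Siglecs, against -0.02 for all genes. The 4 Siglecs include *Siglecf*, a sorting marker, and *Siglec1*, which was over 10 TPM only in *Cd300a-/-*. The Siglec median was 0.41 over the 3 genes with TPM over 10 in both libraries, and 0.43 over all 4 when length-centred. *Cd33* and *Siglec1* have long gene models, and their length-centred ratios were 0.48 and 0.31, so neither stayed past 0.5. Of the genes past 0.5 here, *Syk*, *Pik3r5* and *Hcst* were within it when length-centred.

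Of 6 genes of Fcγ receptors and their chain, 1 was lower, *Fcgr1* (ratio -1.22 [-1.33 to -1.12]), and *Fcer1g*, the shared chain, was at 2836 and 2571 TPM. Of 12 C-type lectin receptors, 1 was higher, *Mrc1*, and 1 lower, *Clec4a3*, at 161 and 83.1 TPM. In the Toll-like receptor pathway, 3 of 17 were higher and 1 lower, against 15.9% and 19.1% of all genes. *Irak3*, a brake on the pathway, was at 36.4 TPM in WT against 82.2 TPM in *Cd300a-/-* (ratio 1.15 [1.02 to 1.29]) and *Tlr8* at 16.0 and 34.7 TPM. *Ly96*, the partner of TLR4 for endotoxin, was at 61.0 and 20.1 TPM (ratio -1.55 [-1.93 to -1.18]). Of 15 chemoattractant receptors, 1 was higher, *Ltb4r1* for leukotriene B4, at 148 and 209.6 TPM, and 2 were lower, *Ccrl2* at 751 and 476 TPM and *Cmklr1* at 24.6 and 16.8 TPM. Of 18 leukocyte adhesion genes, 2 were higher, *Itgam* and *Itgav*, and 4 lower, led by *Pecam1* and *Icam2*, both also made by endothelial cells. *Icam2* was at 37.4 and 10.2 TPM. Medians of these 5 groups lay near that of all genes, at -0.13 for Fcγ receptors, -0.19 for lectins, 0.18 for the Toll-like receptor pathway, 0.04 for chemoattractant receptors and 0.11 for adhesion genes. Centred on length, those of Fcγ receptors, lectins and adhesion genes turned to 0.15, 0.07 and -0.09. Centred on length, *Mrc1*, *Itgam* and *Itgav* were within 0.5.

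Among receptors for cytokines, 3 of 17 were higher and 0 lower, close to the 15.9% higher among all genes, with a median of 0.22, and the 3 were *Csf2ra* and *Csf2rb* of the GM-CSF receptor and the related *Csf2rb2*. *Csf2ra*, the ligand-binding chain, was at 275 TPM in WT against 406 TPM in *Cd300a-/-* (ratio 0.56 [0.49 to 0.63]), *Csf2rb*, the signalling chain, at 222 and 335 TPM (ratio 0.59 [0.54 to 0.64]), and *Csf2rb2*, a close copy of it that serves the IL-3 receptor, at 47.9 and 92.1 TPM (ratio 0.93 [0.83 to 1.03]). Their ratios in SiglecF hi neutrophils were 0.21, 0.29 and 0.41. Length-centred, *Csf2rb* was at 0.39 and the others at 0.79 and 0.76. Of 12 genes that recognise phosphatidylserine or clear dying cells, 2 were higher, the scavenger receptors *Stab1* at 41.9 and 79.3 TPM and *Lrp1* at 40.5 and 60.9 TPM, and 1 was lower, the bridging protein *Mfge8* at 52.5 and 32.4 TPM. The median of this group was 0.14 (length-centred 0.002). *Stab1* and *Lrp1* have long gene models, with length-centred ratios of 0.52 and 0.19.

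Most chemokine genes were lower in *Cd300a-/-* SiglecF lo neutrophils. Of 7 CXC chemokines, 5 were lower and 0 higher, with a median of -0.61, and of 9 CC chemokines 6 were lower and 0 higher, with a median of -0.57, against 19.1% of all genes. The gene models of these lists are short, and the length-centred medians were -0.17 and -0.09, with 3 CXC and 0 CC chemokines past -0.5. Of the ligands of CXCR2, *Cxcl5* was at 26.8 TPM in WT against 4.03 TPM in *Cd300a-/-* (ratio -2.47 [-2.89 to -2.05]) and *Cxcl1* at 330.0 and 140.3 TPM (ratio -1.23 [-1.35 to -1.10]), with length-centred ratios of -2.20 and -0.77. *Cxcl2*, the most abundant, was at 2801 and 2121 TPM, within 0.5. *Ccl8*, a monocyte attractant, was at 145 and 77.7 TPM, *Ccl5* at 17.6 and 8.29 TPM and *Ccl6*, the most abundant, at 2498 and 1964 TPM. Within 0.5 when centred on length were *Ccl8* and *Ccl5*.

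Of 15 genes of the IL-1 family and inflammasome, 3 were higher and 1 lower. *Il18rap*, a chain of the IL-18 receptor, was at 48.2 TPM in WT against 92.6 TPM in *Cd300a-/-* (ratio 0.93 [0.83 to 1.03]), and *Il18* at 13.8 and 21.4 TPM. *Pycard*, the inflammasome adaptor, was at 29.2 and 14.6 TPM (ratio -0.95 [-1.14 to -0.77]). *Il1b*, the most abundant, was at 9239 and 6637 TPM, just within 0.5. Among 13 TNF ligands and receptors, 1 was higher, *Ltbr*, the lymphotoxin β receptor, at 42.3 and 64.7 TPM. The ligands *Tnfsf13* and *Tnfsf9* were lower, at 17.2 and 6.79 TPM and at 14.8 and 9.98 TPM. Of 10 other secreted cytokines, 1 was higher, *Ebi3*, a subunit of IL-27, at 101 and 156 TPM, and 3 lower. *Spp1*, encoding osteopontin, was at 1349 and 884 TPM (ratio -0.61 [-0.65 to -0.57]), and *Il6* at 56.8 and 15.0 TPM, the largest fall of this list. The medians were 0.30 for the IL-1 group, -0.05 for the TNF group (length-centred 0.12) and -0.12 for other cytokines. Not past 0.5 once centred were *Tnfsf9* and *Spp1*.

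Interferon-stimulated genes leaned downwards. Of 51 listed, 50 were in the files and 47 tested, of which 18 were lower and 3 higher, against 19.1% and 15.9% of all genes, with a median of -0.37 and 33 of 47 below 0. Length changed little here, as the length-centred median was -0.32 with 16 genes past -0.5. In SiglecF hi neutrophils the median of the same genes was 0.19, with 0 lower and 4 higher. The difference between the subsets was not tested. *Ifit1*, an RNA-binding antiviral protein, was at 221 TPM in WT against 79.8 TPM in *Cd300a-/-* (ratio -1.46 [-1.55 to -1.36]), and at 124 and 143 TPM in SiglecF hi neutrophils. *Bst2*, which tethers budding virions, was at 233 and 97.6 TPM (ratio -1.25 [-1.41 to -1.09]). Chosen after their values were seen, *Isg15*, a ubiquitin-like modifier, was at 1016 and 518 TPM, *Ifit3* at 222 and 114 TPM and *Rsad2*, encoding viperin, at 218 and 133 TPM. *Stat2*, a transcription factor of the pathway and also chosen later, had a ratio of -0.58 [-0.76 to -0.41]. Of the 3 higher members, *Slfn4*, the most abundant of the list on average, was at 822 and 1440.3 TPM (ratio 0.81 [0.78 to 0.84]) and *Oas2* at 33.5 and 52.2 TPM. Their SiglecF hi ratios were 0.65 and 0.62. After length centring *Isg15* and *Oas2* were no longer past 0.5.

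Other interferon-responsive families were split. Of 11 interferon-inducible GTPases, 3 were lower, *Gvin1*, *Igtp* and *Gbp2*, and 1 higher, *Gvin2*, with a median of -0.17 (length-centred -0.34). *Igtp* was at 56.2 TPM in WT against 33.8 TPM in *Cd300a-/-* and *Gbp2* at 131 and 85.8 TPM, both of which act against pathogens inside vacuoles. Among the Ifitm genes, for membrane proteins that block viral entry, the median was 0.55 (length-centred 1.05). It was 0.31 over the 5 genes with mean TPM over 1. Of 4 tested, 2 were higher and 0 lower, *Ifitm6* and *Ifitm1*, the latter at 2021 and 3477 TPM, while *Ifitm2*, the most abundant, was at 4503 and 5588 TPM. In the group of MHC class I presentation, 8 of 19 were lower and 0 higher, against 19.1% and 15.9% of all genes. The median was -0.31. Centred on length, the median was -0.19 and 4 of 19 were past -0.5, against 820 of 5643 genes in all. *Psmb9*, an immunoproteasome subunit, was at 98.6 and 34.8 TPM (ratio -1.48 [-1.65 to -1.30]). Its partner subunits *Psmb8* and *Psmb10* and the peptide transporter gene *Tap1*, chosen after their values were seen, had ratios of -0.69, -0.97 and -0.79. *H2-M3*, which presents formylated peptides, was at 23.6 and 10.1 TPM, and *B2m*, the shared light chain, at 7295 and 4603 TPM. Of 6 class II genes, 2 were lower, *H2-DMb1* and *H2-DMa*, which load peptides, at 64.6 and 32.7 TPM and at 45.7 and 26.3 TPM, and *Cd74*, the invariant chain, was at 1279.6 and 1353 TPM, in a list with a median of 0.05 (length-centred 0.43). When length was taken into account, *Psmb8* and *B2m* were within 0.5.

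Promoters of the lower interferon-stimulated genes often held the letters of an interferon-stimulated response element, a DNA site through which type I interferon turns genes on. The pattern searched on both strands was GAAANNGAAA, in RefSeq promoters of GRCm38.p6. Of the 18 lower genes 15 had a promoter there, as had 35 of the 47 tested. It lay in 9 of these 15 (60.0%) and in 18 of the 35 tested genes of the list (51.4%), against 1079 of 27025 genes in all (3.99%). Among genes past 1 it lay in 12 of 221 lower and 1 of 128 higher genes, and in 4.71% of all tested genes. The AP-1 pattern TGANTCA, found in 8.97% of all promoters, lay in 6.33% of the lower and 7.03% of the higher genes past 1, against 6.67% of all tested genes. In interferon-stimulated genes it lay in 5 of the 15 lower and 9 of the 35 tested. A match is a description of these letters and not a shown binding site. To show the element, 50 bases are printed 5′ to 3′ around a match, in capitals, for 5 of these genes, on the strand that holds it. A further match, not or only partly in capitals, lies in the stretches of *Ifit1*, *Bst2* and *Isg15*. The stretches are *Ifit1* at chr19:34640784-34640833 on the minus strand, *Bst2* at chr8:71537573-71537622 on the minus strand, *Isg15* at chr4:156200867-156200916 on the minus strand, *Ifit3* at chr19:34583387-34583436 on the minus strand and *Rsad2* at chr12:26456543-26456592 on the plus strand.
Ifit1: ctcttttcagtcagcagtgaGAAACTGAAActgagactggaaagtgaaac
Bst2: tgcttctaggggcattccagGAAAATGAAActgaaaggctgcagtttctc
Isg15: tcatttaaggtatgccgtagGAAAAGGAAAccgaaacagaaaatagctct
Ifit3: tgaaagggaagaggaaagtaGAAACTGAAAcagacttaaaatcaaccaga
Rsad2: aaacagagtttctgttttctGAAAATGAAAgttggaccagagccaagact

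Of 18 NF-κB subunits, inhibitors and adaptors, 1 was higher, *Nfkb1*, at 52.5 TPM in WT against 75.0 TPM in *Cd300a-/-*, and 1 lower, *Nfkbia*, the IκBα gene and the most abundant, at 1965 and 1361 TPM (ratio -0.53 [-0.56 to -0.50]). The median was 0.34, with 14 of 18 above 0, against a median of -0.02 for all genes. Length-centred, the median of the 18 was 0.29 and 0 of them were past 0.5 either way. Of 26 AP-1 and immediate early genes, which tissue dissociation can also induce, 1 was higher and 0 lower. This was *Fosl1*, at 23.7 and 51.2 TPM (ratio 1.08 [0.86 to 1.30]), while *Junb*, the most abundant, was at 2259 and 1973 TPM. Of 22 myeloid transcription factors, 2 were higher and 0 lower, *Cebpe* and *Rara*, a retinoic acid receptor, at 28.0 and 57.8 TPM. *Cebpb*, the most abundant, was at 2994 and 3072 TPM. The medians were -0.06 for AP-1 genes and 0.14 for myeloid factors. Of the genes past 0.5 here, *Nfkb1* and *Nfkbia* were within it when length-centred.

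Of 17 glycolysis genes, 5 were higher and 0 lower, against 15.9% and 19.1% of all genes, with a median of 0.21. Centred on length, 3 were past 0.5, against 739 of the 5643 genes. *Hk3*, a hexokinase of myeloid cells, was at 92.4 TPM in WT against 152 TPM in *Cd300a-/-* (ratio 0.71 [0.63 to 0.80]) and *Gpi1*, the next enzyme, at 464 and 751 TPM (ratio 0.69 [0.65 to 0.74]). Of 24 genes of the pentose phosphate pathway and antioxidants, 7 were higher and 5 lower, against 15.9% and 19.1% of all genes. *G6pdx*, the entry enzyme that yields NADPH, was at 182 and 379.5 TPM (ratio 1.06 [0.99 to 1.12]), and *Gclm*, of glutathione synthesis, at 15.3 and 34.4 TPM (ratio 1.12 [0.97 to 1.27]). *Prdx1*, a peroxiredoxin, was at 228 and 148 TPM and *Sod1*, a superoxide dismutase, at 409 and 279 TPM, both lower. Of 13 hypoxia-induced genes, 2 were higher, the demethylase *Kdm3a* at 12.2 and 27.6 TPM and the oxidase *Ero1a* at 25.5 and 42.0 TPM, and 1 was lower, *Higd1a*, at 16.7 and 11.4 TPM. The medians were 0.12 for antioxidants and 0.03 for hypoxia genes. Centred on length, *Sod1* was within 0.5.

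Of 79 nuclear subunits of oxidative phosphorylation, 40 were lower and 0 higher, with a median of -0.50. Most have short gene models, and the length-centred median was -0.11. So centred, 12 were past -0.5 and 3 past 0.5, a share below -0.5 much like the 820 of 5643 genes in all. *Cox7b*, of complex IV, was at 152 TPM in WT against 46.0 TPM in *Cd300a-/-* (ratio -1.70 [-1.90 to -1.50]) and *Ndufb5*, of complex I, at 45.4 and 14.0 TPM (ratio -1.63 [-1.88 to -1.39]), with length-centred ratios of -1.25 and -1.47. Of 13 subunits encoded in mitochondria, 1 was lower, the very short *mt-Nd4l*, with a median of -0.06 (length-centred 0.37), and *mt-Co1* was at 8515 and 8910.0 TPM. Mitochondrial transcripts held 4.62% of TPM in WT and 4.41% in *Cd300a-/-*. *Slc25a4*, the exchanger of ADP and ATP, was at 75.5 and 28.5 TPM (ratio -1.38 [-1.56 to -1.19]), the largest fall among 74 solute carriers tested. Of these 74, 13 were higher and 12 lower, near the 15.9% and 19.1% of all genes, with a median of 0.08. The largest rise was that of *Slc8b1*, a mitochondrial sodium and calcium exchanger, at 22.4 and 44.7 TPM, followed by the mitochondrial iron importer *Slc25a28* at 19.6 and 37.7 TPM. Within 0.5 when centred on length was *mt-Nd4l*.

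Of 13 iron and heme genes, 3 were higher, among them *Cd163*, the haptoglobin-haemoglobin receptor of macrophages, at 13.8 TPM in WT against 34.8 TPM in *Cd300a-/-* (ratio 1.28 [1.11 to 1.46]) and the mitochondrial iron importer *Slc25a37* at 14.3 and 26.4 TPM. The biliverdin reductases *Blvra* and *Blvrb* were lower, at 39.2 and 25.4 TPM and at 46.9 and 31.2 TPM. Of 14 cholesterol genes, 2 were higher and 0 lower, among them *Hmgcs1*, of sterol synthesis, at 7.84 and 12.4 TPM. Of 16 genes of lipid droplets and fatty acids, 2 were higher and 3 lower. The higher ones, *Dgat1* and *Dgat2*, make the last step of triglyceride synthesis, at 186 and 419 TPM (ratio 1.17 [1.09 to 1.24]) and at 134 and 190.2 TPM (ratio 0.50 [0.42 to 0.59]). *Gpnmb*, a glycoprotein of lipid-laden macrophages, was at 47.7 and 25.0 TPM and was lower, as was *Fabp4*. The medians were 0.01 for iron, 0.19 for cholesterol and 0.05 for lipid droplet genes. Not past 0.5 once centred were *Blvra* and *Blvrb*.

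Of 12 genes of leukotriene and prostaglandin synthesis, 3 were higher and 1 lower, with a median of 0.25. *Alox5ap*, which presents arachidonic acid to 5-lipoxygenase, was at 2286 TPM in WT against 3489.6 TPM in *Cd300a-/-* (ratio 0.61 [0.58 to 0.64]). *Hpgd*, which inactivates prostaglandins, was at 16.7 and 44.1 TPM (ratio 1.35 [1.09 to 1.61]) and *Hpgds*, a prostaglandin D synthase, at 8.68 and 16.2 TPM. *Ptges3* was lower, at 99.6 and 67.1 TPM. In the arginine group, 3 of 10 were higher and 1 lower, with a median of -0.10 (length-centred 0.32). *Nos2*, described above, was among the higher ones. *Azin1*, which spares ornithine decarboxylase, was at 47.2 and 79.5 TPM. After length centring *Ptges3* was no longer past 0.5.

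Of 7 tested subunits of the NADPH oxidase and their regulators, 0 were past 0.5, with a median of 0.20 and *Cyba*, the most abundant, at 1509.9 TPM in WT against 1473 TPM in *Cd300a-/-*. Of 11 complement genes, 2 were higher, among them *C3* at 159 and 230.2 TPM, and 1 was lower, *Cfb*, the factor B gene, at 31.7 and 15.9 TPM. Of 30 actin cytoskeleton genes, 2 were higher, the filamin gene *Flna* and the myosin gene *Myh9*, at 204 and 357 TPM and at 303 and 476 TPM. The thymosin gene *Tmsb10* and the myosin light chain gene *Myl12a* were lower, at 444 and 286 TPM and at 277 and 193 TPM. *Flna* and *Myh9* have long gene models, and their length-centred ratios were 0.42 and 0.36. The medians were 0.00 for complement (length-centred 0.22) and 0.05 for actin genes. When length was taken into account, *C3*, *Tmsb10* and *Myl12a* were within 0.5.

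Of 77 cytosolic ribosomal protein genes, all tested and many of them with near-identical pseudogenes, 47 were lower and 0 higher, with a median of -0.55. That was far more than the 19.1% lower among all genes, but the count was not above that of all genes once centred on length, with a median of -0.14 and 7 of 77 past -0.5 against 820 of 5643 genes in all. Together they held 6.50% of TPM in WT and 4.47% in *Cd300a-/-* SiglecF lo neutrophils, and 8.11% and 7.58% in SiglecF hi neutrophils. *Rps29*, the most abundant, was at 2357 TPM in WT against 1839 TPM in *Cd300a-/-*. *Rpl10* had the largest fall, at 953 and 311 TPM (ratio -1.61 [-1.69 to -1.53], length-centred -1.16). Of 31 constitutive proteasome subunits, 10 were lower and 0 higher, against 19.1% and 15.9% of all genes, with a median of -0.29. Centred on length, the median was -0.11. Then 6 were past -0.5 and 2 past 0.5, against 820 and 739 of 5643 genes in all. *Psmb2* was at 175 and 75.8 TPM and *Psma5* at 80.9 and 39.3 TPM.

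Of 29 lysosomal genes, 2 were lower and 1 higher. *Ctss*, the protease cathepsin S, was at 2023 TPM in WT against 1184 TPM in *Cd300a-/-* (ratio -0.77 [-0.81 to -0.73]), *Ctsl*, cathepsin L, at 147 and 104 TPM and *Gaa*, which degrades glycogen, at 12.0 and 18.6 TPM. Of 15 V-ATPase subunits, the proton pumps of these organelles, 0 were past 0.5. Among 19 chaperone genes, 5 were lower and 1 higher, against 19.1% and 15.9% of all genes. The mitochondrial chaperonins *Hspd1* and *Hspe1* were lower, at 46.8 and 24.9 TPM and at 94.8 and 53.3 TPM, and the stress-inducible *Hspa1b*, which has a near-identical copy, was at 14.9 and 35.7 TPM. In the list of endoplasmic reticulum stress, 6 of 19 were lower and 2 higher, with 19.1% lower and 15.9% higher among all genes. *Sdf2l1* and *Manf*, which act in folding, were at 74.7 and 27.5 TPM (ratio -1.41 [-1.65 to -1.16]) and at 72.6 and 32.5 TPM (ratio -1.14 [-1.28 to -0.99]). *Chac1*, which degrades glutathione, and *Creld2* went the other way, at 9.39 and 17.5 TPM and at 17.7 and 30.9 TPM. The medians were -0.20 for lysosomal genes, -0.19 for the V-ATPase (length-centred 0.005), -0.27 for chaperones and -0.17 for endoplasmic reticulum stress. Of the genes past 0.5 here, *Ctss*, *Gaa* and *Hspe1* were within it when length-centred.

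In the survival machinery, 3 of 18 genes of the BCL2 family and caspases were higher and 2 lower. *Xiap*, a caspase inhibitor, was at 9.58 TPM in WT against 18.4 TPM in *Cd300a-/-* (ratio 0.88 [0.72 to 1.04]) and *Cflar*, which blocks caspase-8, at 18.7 and 33.7 TPM (ratio 0.82 [0.70 to 0.94]). Both have long gene models, with length-centred ratios of 0.49 and 0.43. *Bax*, which permeabilises mitochondria, was at 125 and 69.5 TPM (ratio -0.83 [-0.99 to -0.68]) and *Bcl2a1b*, a survival factor with close copies, at 955 and 607 TPM. Their length-centred ratios were -0.44 and -0.11, so 0 genes of this list stayed past 0.5 either way. *Mcl1*, on which neutrophils depend, was the most abundant, at 1265 and 1524 TPM. Of 23 proliferation genes only 4 were tested, of which 2 were lower and 0 higher, *Stmn1* at 28.8 and 15.3 TPM and *Pcna* at 143 and 99.4 TPM. The medians were -0.03 for the survival and -0.40 for the proliferation genes. For the latter it was -0.68 over 22 genes with mean TPM over 1, and -0.24 when centred on length. Centred on length, *Stmn1* and *Pcna* were within 0.5.

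**Figure D3:**
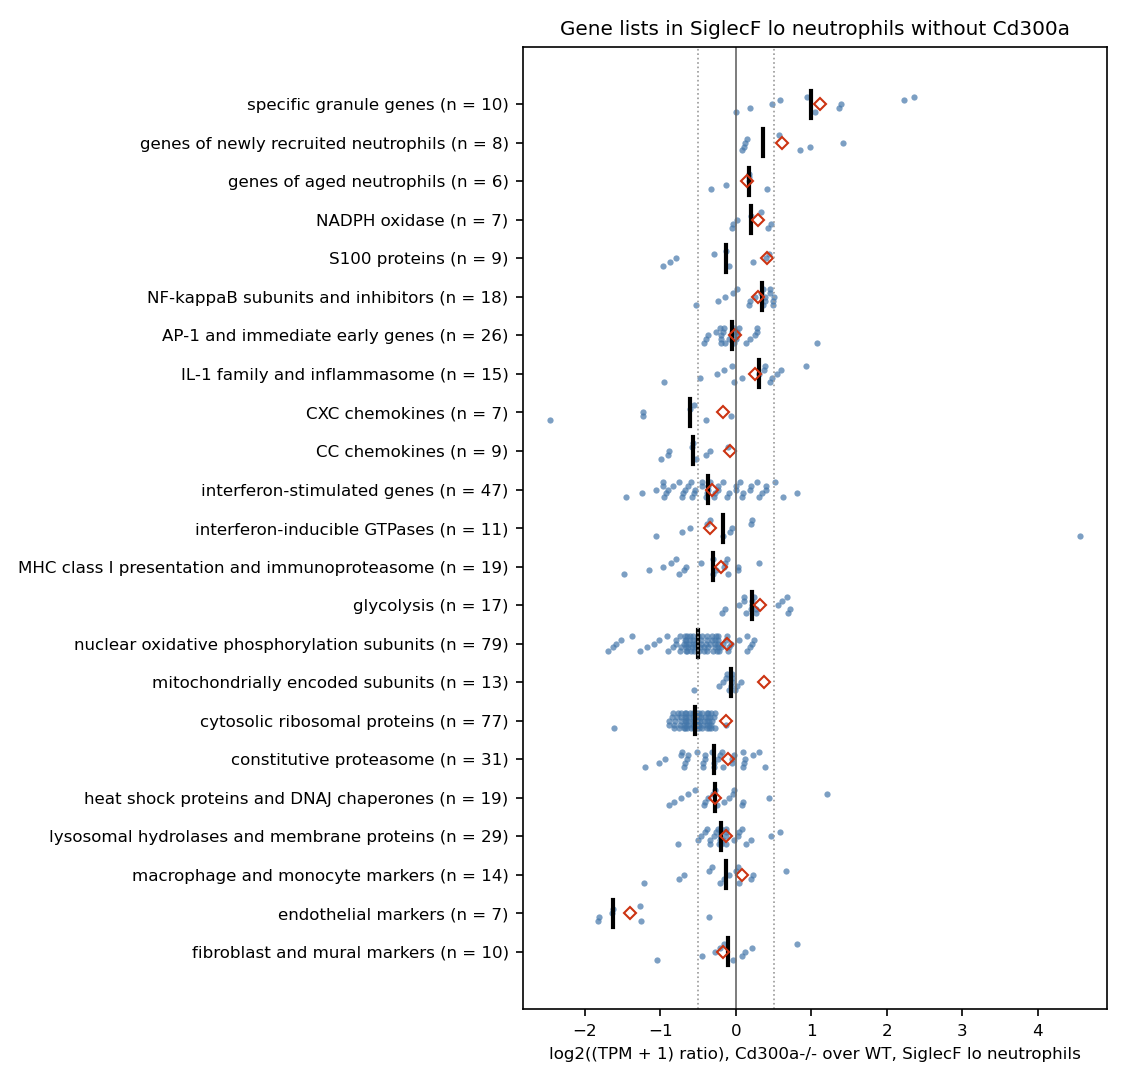
Log2 ratio of TPM + 1, Cd300a-/- over WT, in SiglecF lo neutrophils for each tested member (points) of 23 gene lists. Black bars are medians, open diamonds are medians of the length-centred ratios and dotted lines mark -0.5 and 0.5, and the point farthest right is *Gvin2*, with 0 counts in WT. The median of specific granule genes is 1.00 and that of endothelial markers -1.64, and the diamonds of ribosomal and oxidative phosphorylation genes lie at -0.14 and -0.11.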

How the data were processed

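Neutrophil RNA was extracted with ISOGEN, poly(A)-selected, made into libraries with the NEBNext Ultra II kit and sequenced in pairs on a NextSeq. Per the authors, reads were mapped to GRCm39 and TPM values were computed with CLC Genomics Workbench. The count values were deposited by the authors as total counts per gene. Whether a pair counts 1 or 2 times is not given. The RPKM values deposited by the authors served only, with the counts, to derive the length of each gene model. The log2 ratio was that of TPM + 1, *Cd300a-/-* over WT, for genes with mean TPM over 10 in the 2 libraries, and its 95% interval came from the Poisson error of both counts. A gene with 0 counts in 1 library was bounded by setting 0 to 3 counts.

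The 68 gene lists, and the samples compared, were chosen with earlier results of these data known. Genes named were drawn from *Cd300a* and the sorting markers, the 10 largest rises and falls among tested genes over 10 TPM in the higher library without clone or predicted-gene names, the Cd300 family and, in each list, the most abundant member and up to 2 rises and 2 falls past 0.5. The rest of the specific granule list, other interferon-stimulated and immunoproteasome genes, *S100a8*, 1810049J17Rik, and markers at 0 counts or too low to be tested were chosen after their values were seen. Alternatives changed the scaling (TMM factors of edgeR 4.0.16, median centring, leaving out the 10 most abundant genes), the filter, the pseudocount and the threshold. Centring on length, and counting each list without genes that had 0 counts in 1 library, were chosen after the data were seen. Scripts were tried on simulated data first and used Python 3.11.15, numpy 2.4.6, pandas 2.3.3, matplotlib 3.10.9 and R 4.3.3.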

Additional observations from a re-analysis of the deposited data

Results flagged for a closer look

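These 6 genes, named in the text, moved past 0.5 one way in SiglecF lo and past 0.5 the other way in SiglecF hi neutrophils, with 1 library behind each value, and the difference between subsets was not tested. The muscle genes *Acta1* and *Pln* had log2 ratios, *Cd300a-/-* over WT, of -2.81 and -0.90 in SiglecF lo against 0.64 and 0.98 in SiglecF hi neutrophils, where *Acta1* had only 11 and 22 counts (interval 0.09 to 1.18). *Ctla2a* fell by a ratio of -2.64 in the former and rose by 0.53 in the latter. *Cox4i2*, at 0 counts in *Cd300a-/-* SiglecF lo neutrophils, had ratios of -4.67 and 1.02, the latter from 13 and 30 counts (interval 0.35 to 1.69). The chemokine gene *Ccl5* was at -0.998 and 0.86, the former from 48 and 25 counts (interval -1.63 to -0.36). Centred on length, its SiglecF lo ratio was -0.45, within 0.5. Only *Tst* rose in SiglecF lo neutrophils, by 3.06, with a ratio of -0.86 in SiglecF hi neutrophils, the latter from 53 and 22 counts (interval -1.40 to -0.33).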

How the results depend on the processing

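Between 683 and 1103 genes were higher and between 820 and 1121 lower in *Cd300a-/-* SiglecF lo neutrophils under other pseudocounts, other scalings, centring on length and a TPM over 10 in both libraries. Counts moved further where the choice itself admits more or fewer genes. With mean TPM over 1, 2242 of 11004 genes were higher and 2755 lower, and with no filter 2928 of 14077 were higher and 3548 lower. With a threshold of 1, 169 were higher and 301 lower, and with the whole counting interval past 0.5, 530 and 660. Of 59 list medians, 9 were past 0.5, and these kept their direction under every choice except centring on length. That choice kept 3 past 0.5 (specific granule genes, the Ifitm family and endothelial markers), and it turned the median of erythroid markers to 0.0084. Leaving out the 10 most abundant genes kept 5 of the 9 past 0.5, and TMM scaling kept 8. With mean TPM over 1, 6 stayed past 0.5, and the medians of the Ifitm family and erythroid markers became 0.31 and -0.11. Of 168 named genes past 0.5, TMM scaling kept 162 past it and a pseudocount of 5 kept 154, all in the same direction. Centring on length kept 116 of 164 past 0.5, and *Cstdc4* turned to 0.020 and *G0s2* to 0.026. The cause of these reversals was not tested. Without genes at 0 counts in 1 library, list counts changed only for the Cd300 family (2 higher) and the interferon-inducible GTPases (0 higher). Depth limits genes with few counts, as 0 counts allow up to 3. No replicate could be left out, as there was 1 library a group.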
